A study of Mus musculus with 24 samples.

Results

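The data described here are the change from gd14.5 to gd16.5 (gd, gestation day) in the maternal-fetal interface of C1qtnf6-KO mice, and where that change departed from the one in WT mice. The members are the 3 C1qtnf6-KO libraries of gd16.5 and the 3 of gd14.5, taken by genotype and stage from the labels, which are 6 of the 24 bulk RNA-seq libraries of the series. The 3 WT libraries of each of these stages served for comparison. In the KO mice the exons of *C1qtnf6*, which encodes the secreted protein CTRP6, had been deleted with CRISPR-Cas9, and both genotypes had the C57BL/6 background. The deletion was carried by the whole animal, so it was not limited to a tissue or cell type. The tissue is labelled maternal-fetal interface and the methods speak of placentae, so a library can hold trophoblast, fetal vessels and blood, attached membranes, and maternal decidua with its immune cells. PolyA RNA was sequenced in each library. The labels name no dam, litter, pooling or sequencing run, so replicates may share any of these, and the p-values measure only the spread between these libraries.

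The mouse placenta consists of the labyrinth, where maternal and fetal blood exchange solutes, the junctional zone of spongiotrophoblast, glycogen cells and giant cells, and the maternal decidua. Trophoblast of the junctional zone secretes large families of hormones encoded in gene clusters, the prolactin-like hormones and the pregnancy-specific glycoproteins. Uterine natural killer (NK) cells, rich in perforin and granzymes, fill the decidua at mid-gestation and become fewer toward term. The visceral endoderm of the yolk sac makes plasma proteins such as alpha-fetoprotein and apolipoproteins before the fetal liver takes over. In bulk tissue, fewer cells of a type and less RNA per cell cannot be told apart.

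Total counts over the 12 libraries lay between 22204068 and 37383108, and those of the KO libraries between 23041063 and 37383108. The limit of detection was set at 3 reads, which is 0.0739 to 0.145 CPM in the KO libraries. CPM, the count of a gene scaled to a common library size with TMM factors, is the level used below, and a level is compared only between libraries, never between genes. Values after ± are SEs of fits with 3 libraries per group. *C1qtnf6* (chr15:78523346-78531416 in GRCm38, minus strand) had 12, 16 and 12 raw counts in the KO libraries of gd14.5, and 13, 15 and 45 in those of gd16.5. The WT libraries held 4132, 4407 and 3086 counts at gd14.5 and 2206, 1779 and 2024 at gd16.5. No KO library overlapped a WT library in CPM, so the genotype labels held. KO gd16.5 replicate 3 had the most residual reads of the 6 KO libraries. The exons of *C1qtnf6* overlap *Gm49490* on the other strand, whose own count was 4 or fewer in each of the 12 libraries.

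Libraries of one group were not alike (see the plot of marker sums). The 22 yolk sac endoderm genes listed here summed to 293, 310 and 368 CPM in the KO gd14.5 libraries, and to 9481, 27490 and 550 CPM in those of gd16.5. KO gd16.5 replicates 1 and 2 therefore held far more RNA of these genes, called yolk sac RNA below, than replicate 3. WT gd16.5 replicate 1 did too, with 9906 CPM against 513 and 544 CPM in the other WT libraries of its stage. WT gd16.5 replicate 3 stood apart in other lists. Its junctional zone sum was 66859 CPM against 83104 and 87864 CPM in replicates 1 and 2. Its matrix sum was 21474 against 16002 and 14109 CPM, and its endothelial sum 5075 against 4061 and 3588 CPM. The 4 Y-linked genes summed to 188, 181 and 1.11 CPM in KO gd16.5 and to 0.54, 0.517 and 164 CPM in KO gd14.5. The same 2 KO libraries of gd16.5 held both the yolk sac and the Y-linked RNA, so these differences cannot be told apart at that stage. In WT gd16.5 the Y-linked sums were 86.4, 0.638 and 0.468 CPM, so there too the library with yolk sac RNA held the Y-linked RNA. The lone gd14.5 KO library with Y-linked RNA, replicate 3, also had the lowest sum of NK effector genes of its group, 755 CPM against 2277 and 1618 CPM. In WT the lone gd14.5 library with Y-linked RNA, replicate 3 with 161 CPM, had the highest sum of its group, 1985 CPM against 1644 and 1188 CPM. Counts and named results are therefore also given without the libraries that held yolk sac RNA. That fit keeps 1 KO library of gd16.5, which is assumed to vary like the gd14.5 libraries, and it was added once the data were known. It also drops each gd16.5 library with high Y-linked RNA but keeps replicate 3 of gd14.5 in both genotypes. Y-linked content therefore differs between the stages in that fit.

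**Figure D1:**
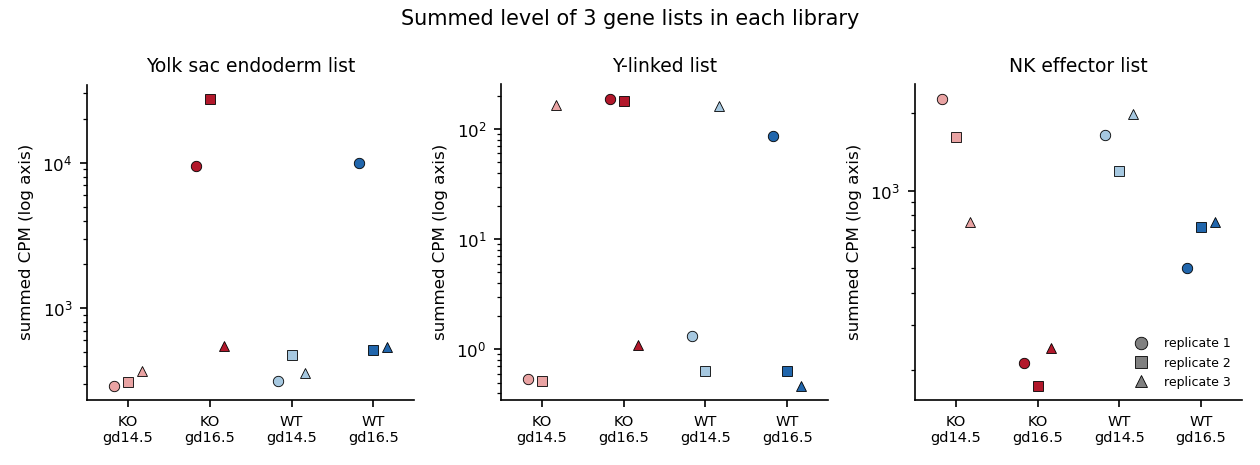
Summed CPM (log axis) of the yolk sac endoderm, Y-linked and NK effector lists in each of the 12 libraries, by genotype and stage, 1 point a library. KO gd16.5 replicates 1 and 2 and WT gd16.5 replicate 1 stand above the other libraries for the yolk sac list, and the NK effector sums of the 3 KO gd16.5 libraries, 214, 174 and 244 CPM, lie below all others.

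Without *C1qtnf6*, more genes were higher at gd16.5 than lower. Of 18066 genes tested, 956 were called higher (5.29%) and 573 lower (3.17%), or 1529 in either direction (8.46%), by the quasi-likelihood test of edgeR. A call needed an adjusted p under 0.05 together with a log2 change of more than 1 in size. In WT, 572 genes were higher (3.17%) and 452 lower (2.5%). The 2 sets of calls shared 744 genes, all in the same direction, which is 48.7% of the KO calls and 72.7% of the WT calls. Not being called in WT does not show a different change, and 97.3% of the KO calls had the same sign in WT. Across the genes tested, the 2 log2 fold changes had a Pearson r of 0.813, a description over genes that are not independent and over gd16.5 groups that each held a library with yolk sac RNA.

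These counts were smaller without the libraries with yolk sac RNA. Among the KO calls, 456 of the higher genes and 347 of the lower ones (47.7% and 60.6%) had every gd16.5 library more than 1 log2 unit past the gd14.5 mean. Without the 2 KO libraries, edgeR called 670 genes, 409 higher and 261 lower, of which 606 were also called in the same direction with all libraries. With the WT library left out too, 451 genes were called in both genotypes (67.3% of the KO and 47.6% of the WT calls), again with 0 in opposite directions, and the r across genes was 0.661. Leaving out KO gd14.5 replicate 1 or 2 alone gave 919 and 856 KO calls. With a score of the yolk sac genes as a covariate in the fit of all 6 KO libraries, 409 genes were called. The score is the mean log2 CPM of that list, so the fit removes the change of its own members by construction. It also uses up a residual degree of freedom, of which the KO fit has 4. A call lost with the covariate therefore need not mean a smaller change.

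**Figure D2:**
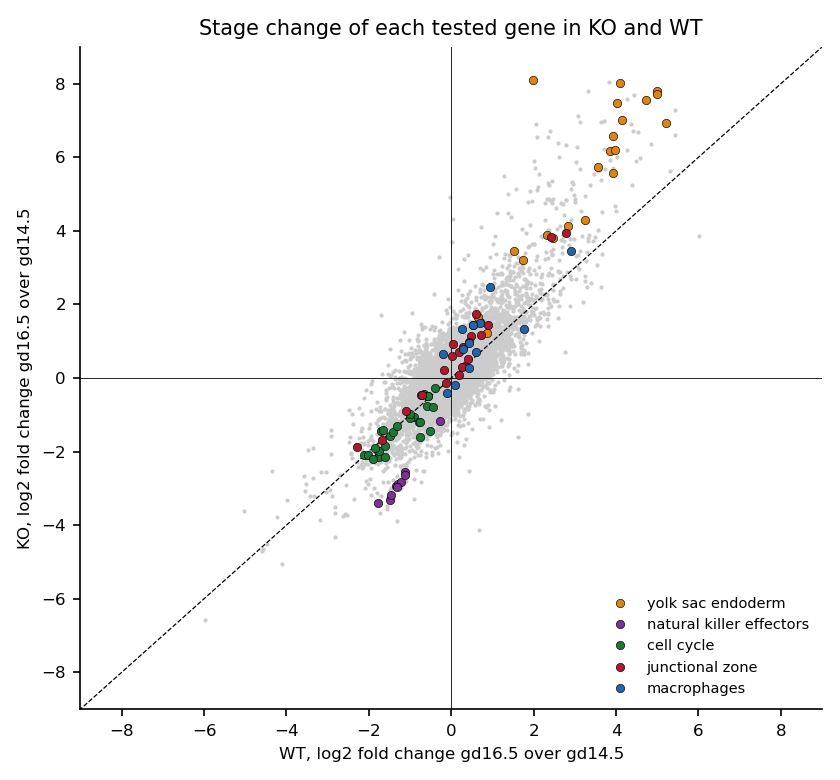
Log2 fold change from gd14.5 to gd16.5 of each of 18066 genes in KO (vertical axis) against WT (horizontal axis). Points follow the diagonal with a Pearson r of 0.813, and 744 genes were called in both genotypes, all in the same direction.

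The largest fold changes of KO were in the yolk sac and plasma protein genes, and they rested on 2 libraries. *Afp* (chr5:90490737-90508907), encoding alpha-fetoprotein, had 36, 30.2 and 33.7 CPM at gd14.5 and 4256, 14343 and 87.3 CPM at gd16.5. Its gd16.5 replicate 3 lay far below the other two, yet above every gd14.5 library, as the rule for naming the largest rises required. *Apoa1*, the main protein of high-density lipoprotein, had 4.05, 3.69 and 4.53 CPM and then 625, 2099 and 14.54 CPM. For *Apob*, the protein of low-density lipoprotein, the levels were 19.4, 12.9 and 16.1 CPM and 2223, 3601 and 40.2 CPM. The log2 fold changes of the 3 genes were 7.55 ± 1.58, 7.81 ± 1.58 and 6.92 ± 1.40 (SE), with edgeR adjusted p-values of 0.0138, 0.0125 and 0.0124. Without the 2 libraries they were 1.39, 1.83 and 1.32, and each was still called (0.00182, 0.00317 and 0.0108). With both kept, the calls of *Afp*, *Apoa1* and *Apob* were lost without KO gd14.5 replicate 1 (adjusted p 0.0618, 0.0588 and 0.0563) and without replicate 2 (0.0694, 0.0651 and 0.0651). The iron carrier *Trf*, at 139, 162 and 223 and then 1108, 3469 and 281 CPM, was called with all libraries but not without these 2 (log2 0.68, adjusted p 0.11). The call of *Trf* was also lost without each gd14.5 library in turn (adjusted p 0.0912, 0.0962 and 0.0582) and without KO gd16.5 replicate 1 (0.0528).

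Of the 22 yolk sac endoderm genes tested, 21 were called higher, with a median log2 fold change of 5.96, against 0.012 over all genes. Without the 2 libraries 5 of the 22 were called, with a median of 0.98. Of the members named below, *Alb*, the 3 fibrinogen genes and *Serpina1b* lost their calls when any 1 of the gd14.5 libraries was left out, with adjusted p-values of 0.0796, 0.0848 and 0.0615 for *Alb* and of 0.0706, 0.0802 and 0.056 for *Serpina1b*. These 5 genes were not called without the 2 libraries either. *Spp2* lost its call without gd14.5 replicate 1 (0.0635) or 2 (0.0702). Albumin (*Alb*) had 0.99, 1.58 and 1.58 CPM at gd14.5 and 146, 990 and 2.78 CPM at gd16.5. In WT it had 1.68, 35.8 and 2.78 CPM and then 159, 1.15 and 1.03 CPM, so a gd14.5 library also stood apart there. The fibrinogen chains *Fga*, *Fgb* and *Fgg* had at most 1.08, 0.75 and 0.64 CPM at gd14.5. At gd16.5 they reached 241, 354 and 220 CPM in replicate 2 but 1.99, 1.28 and 1.28 CPM in replicate 3. *Fgg* shares exon sequence with *Gm30097* on the other strand. The liver-type secreted proteins *Spp2* and *Serpina1b*, an inhibitor of serine proteases with close paralogs, followed this pattern, with 1.72 and 0.751 CPM in replicate 3 against 208 and 99.2 CPM in replicate 2.

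For 4 genes the gd14.5 level was at or near the limit of detection, and counts are given in place of a fold. The actin regulator *Eps8l3* had 1, 0 and 1 counts at gd14.5 and 81, 499 and 2 at gd16.5. *Spink1*, a trypsin inhibitor, went from 3, 0 and 3 counts to 209, 999 and 7. The gap junction protein *Gjb1* had 1, 2 and 1 counts, then 74, 424 and 4. *Clec2h*, a lectin-like membrane protein, had 3, 5 and 3 counts, then 289, 1286 and 14. In each of these genes replicates 1 and 2 of gd16.5 supplied nearly all of the reads. All 4 calls were lost without gd14.5 replicate 1 or 2 (adjusted p between 0.0598 and 0.0875), and those of *Eps8l3* and *Gjb1* also without replicate 3 (0.0571 and 0.0533). *Eps8l3* overlaps *4933431E20Rik* on the other strand.

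The promoters of the liver- and yolk sac-type genes were searched for GTTAAT, the core of the site of the hepatic factor HNF1, on both strands of the RefSeq promoter (GRCm38.p6) from 250 bases before to 50 after the start site. It was found in 4 of 17 matched promoters of the list (23.5%), against 7.2% of 27025 promoters of all genes. A match is a description of letters and not a binding site. The 150 bases before the start sites of *Afp* (chr5:90490564-90490713, plus strand) and *Alb* (chr5:90460720-90460869, plus strand) are shown 5′ to 3′ because both genes are described above and hold a match, which is in capitals.
Afp: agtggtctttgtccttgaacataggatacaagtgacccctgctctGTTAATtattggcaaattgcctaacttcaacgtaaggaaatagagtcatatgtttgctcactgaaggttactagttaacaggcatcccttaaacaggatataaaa
Alb: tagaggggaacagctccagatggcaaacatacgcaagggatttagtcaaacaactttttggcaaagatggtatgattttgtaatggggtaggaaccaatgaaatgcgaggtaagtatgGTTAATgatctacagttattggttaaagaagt

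Genes that rose in every gd16.5 library of KO formed another group. The 20 genes named by this rule, which was added after the values had been seen, were led by placental genes. *Doxl2* (chr6:48974963-48978746), of the amine oxidase family, had 13.4, 14.1 and 17.5 CPM at gd14.5 and 1311, 839 and 538 CPM at gd16.5. The lowest gd16.5 library was thus far above the highest of gd14.5. The log2 change was 5.90 ± 0.36 (edgeR adjusted p = 0.000605), and 5.17 without the libraries with yolk sac RNA. In WT, *Doxl2* went from 27.8, 19.8 and 15.2 CPM to 512, 556 and 336 CPM, a log2 fold change of 4.48 ± 0.27.

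Channels and enzymes stood beside hormones in this group. The sodium channel *Scn9a* had 0.87, 1.58 and 2.54 CPM and then 43.6, 41.4 and 27.6 CPM, although *Gm13629* overlaps it on the other strand. *Cacna2d3*, a calcium channel subunit, went from 0.81, 0.566 and 0.957 CPM to 11.9, 9.2 and 9.68 CPM. The zinc transporter *Slc30a3* had 0.18, 0.197 and 0.515 CPM, then 10.7, 6.03 and 3.45 CPM. For these 3 genes the groups did not overlap, which their choice by a rise in every library favoured. The log2 fold changes were 4.52 ± 0.34, 3.73 ± 0.21 and 4.55 ± 0.55. Log2 fold changes of coagulation factor *F11*, pepsinogen C (*Pgc*) and sialyltransferase *St8sia2* were 3.21 ± 0.31, 2.88 ± 0.17 and 2.87 ± 0.28. *Dmgdh*, a mitochondrial enzyme of choline breakdown that overlaps *AW495222*, changed by 3.06 ± 0.26, and the poly(A) polymerase *Tent5b* by 3.37 ± 0.30. *Il22ra1*, a subunit of the interleukin-22 receptor, was uneven, with 0.15, 0.0739 and 0.184 CPM and then 2.56, 11.4 and 1.15 CPM, and its call was lost without KO gd14.5 replicate 2 (adjusted p 0.0558). The genes *Ly6g6c* (which overlaps *Mpig6b*), *Nyx* and *Elmod1* and the pseudogene *Ceacam-ps1* changed by 3.76 ± 0.45, 3.84 ± 0.49, 2.76 ± 0.26 and 5.68 ± 0.76.

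Hormone genes of the junctional zone were higher at gd16.5 in KO for a part of the list. Of 21 genes tested, 6 were called higher and 2 lower (38.1%), with a median log2 fold change of 0.60, and the same numbers were called without the libraries with yolk sac RNA. *Prl8a6* (chr13:27432681-27438688), a prolactin-like hormone, had 506, 457 and 530 CPM at gd14.5 and 8215, 7373 and 5821 CPM at gd16.5. The 2 stages were far apart and the libraries of each close together. Its log2 fold change was 3.84 ± 0.16 in KO (edgeR adjusted p = 0.000399) and 2.41 ± 0.20 in WT, where it went from 589, 801 and 664 to 3585, 4587 and 2760 CPM. *Prl3a1*, of the same family, had 52.6, 66.7 and 91.4 CPM and then 1249, 1140 and 860 CPM in KO. Its WT libraries had 74.8, 100 and 75.8 CPM and then 619, 730 and 389 CPM. The log2 fold changes were 3.95 ± 0.24 and 2.79 ± 0.23. Every KO gd16.5 library of both genes exceeded every WT library of its stage.

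Markers of spongiotrophoblast with high counts had smaller changes. *Tpbpa*, the marker by which these cells are usually recognised, had 19884, 16213 and 19689 CPM and then 30225, 26792 and 27269 CPM, a log2 difference of 0.60 ± 0.15 that was under the threshold of 1. Its relative *Tpbpb* (chr13:60901188-60904880) rose from 5156, 4611 and 6134 CPM to 12480, 11356 and 11192 CPM (log2 1.14 ± 0.14, edgeR adjusted p = 0.00271). In WT, *Tpbpb* had 5601, 5972 and 6192 CPM and then 8625, 9432 and 6601 CPM, and was not called. Pregnancy-specific glycoprotein genes *Psg21* (chr7:18646736-18656725) and *Psg23* rose by 1.18 ± 0.16 and 1.43 ± 0.17 on the log2 scale. *Psg21* had 7961, 7182 and 10215 CPM at gd14.5 and 20278, 18704 and 18366 CPM at gd16.5, with every gd16.5 library above every gd14.5 one. *Prl7c1* rose as well, from 20.1, 14.1 and 27.7 CPM to 74.4, 72.8 and 59.1 CPM. The 2 members that fell were *Prl6a1* (log2 -1.88 ± 0.18) and *Ascl2* (log2 -1.67 ± 0.27), a transcription factor that maintains spongiotrophoblast precursors. *Ascl2* had 9.84, 9.7 and 9.87 CPM and then 2.27, 2.29 and 4.73 CPM, and it changed in WT by -1.69 ± 0.16.

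Giant cell genes gave 3 calls of 12, all higher (25%), and a median of 0.12. *Prl5a1* rose from 4.32, 4.53 and 5.52 CPM to 112, 76.1 and 51.2 CPM (log2 4.06 ± 0.29). The placental protease *Ctsq* had 1891, 1932 and 2505 CPM and then 8712, 7870 and 6678 CPM (log2 1.88 ± 0.16), and *Cts6*, a relative outside the list, rose by 2.91 ± 0.25. *Prl3d1* (placental lactogen I) was at 20.7, 19.52 and 17.3 CPM and then at 53.9, 60.3 and 37.5 CPM in KO, but at 18.3, 14.2 and 19.2 CPM and then at 26.1, 19.4 and 13.9 CPM in WT. The KO groups did not overlap and the WT groups did, with log2 fold changes of 1.40 ± 0.17 and 0.21 ± 0.21. Without the libraries with yolk sac RNA the KO change of *Prl3d1* was 0.97, under the threshold. Placental lactogen II (*Prl3b1*), with 9819, 8135 and 10086 CPM and then 19035, 17624 and 17047 CPM, differed by 0.94 ± 0.14 and missed the fold threshold.

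Summed over whole gene families, chosen by symbol after the values had been seen, prolactin and pregnancy-specific glycoprotein genes were higher in each KO gd16.5 library than in each KO gd14.5 library. The 25 prolactin family genes summed to 38000, 32880 and 38330 CPM in KO gd14.5 and to 62360, 59700 and 61150 CPM in KO gd16.5. In WT they summed to 35930, 35320 and 37740 CPM, then to 46210, 49990 and 37190 CPM. Of these 25 genes, 5 were called higher and 1 lower in KO. The 14 pregnancy-specific glycoprotein genes, 6 of them called higher, summed to 32010, 30440 and 41140 CPM and then to 89380, 85400 and 81730 CPM in KO. Their WT sums were 32170, 37820 and 36350 CPM, then 70110, 65610 and 57970 CPM. In both families each KO gd16.5 sum was above each WT gd16.5 sum. Members of these families are close paralogs, and reads that fit several of them were not counted, so single members are less certain than sums. The junctional zone and giant cell lists together took 7.2% to 8.64% of all counts at KO gd14.5 and 12.5% to 13.4% at KO gd16.5, and the part of this share in the falls of other genes was not tested.

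**Figure D3:**
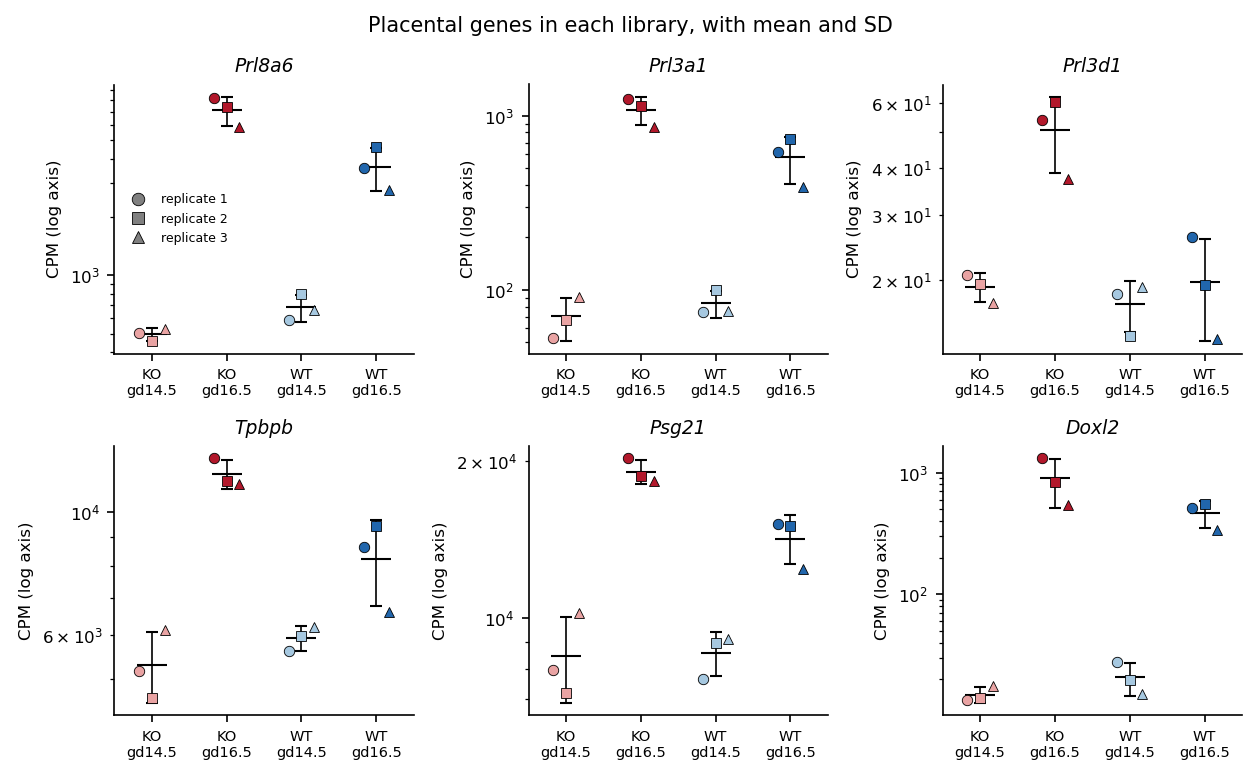
CPM (log axis) of 6 placental genes in the 12 libraries, by genotype and stage, 1 point a library. *Prl8a6* reached 8215, 7373 and 5821 CPM in KO gd16.5 against 3585, 4587 and 2760 CPM in WT gd16.5, and the 2 stages do not overlap in KO for any of the 6 genes.

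Effector genes of NK cells fell together. Of 10 tested, 9 were called lower in KO (90%), with a median log2 fold change of -2.90. In WT 9 were called lower too, with a median of -1.31. *Prf1* (chr10:61297833-61304680), encoding perforin, which opens pores in target cells, had 108, 83.7 and 39.1 CPM at KO gd14.5 and 7.42, 5.64 and 10.2 CPM at KO gd16.5. The WT libraries had 79.2, 59 and 95.2 CPM and then 19.6, 28.1 and 35.4 CPM. Each KO gd16.5 library was below each WT gd16.5 library, whereas the gd14.5 groups overlapped. The log2 fold change was -3.32 ± 0.39 in KO (edgeR adjusted p = 0.00222) and -1.49 ± 0.22 in WT.

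Granzymes, the proteases delivered through perforin, followed. *Gzmb* had 70.7, 45.4 and 23.6 CPM and then 4, 4.72 and 6.85 CPM in KO, or -3.17 ± 0.41 on the log2 scale. *Gzmd* went from 558, 408 and 182 CPM to 54.1, 44.1 and 58.3 CPM and *Gzmg* from 568, 397 and 183 CPM to 50.2, 40.2 and 56.2 CPM. In WT, *Gzmd* had 410, 301 and 502 CPM and then 125, 180 and 188 CPM. For these granzymes too the KO gd16.5 libraries lay under all WT gd16.5 libraries. *Gzmd*, *Gzmg* and *Gzmf* (log2 -2.83 ± 0.36, overlapping *Gm4022* on the other strand) are near-identical copies, so the split of reads among them is uncertain. All granzyme genes together summed to 2152, 1523 and 713 CPM, then to 208, 168 and 236 CPM in KO. Their WT sums were 1556, 1124 and 1873 CPM, then 477, 694 and 717 CPM.

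Markers of NK identity did not all follow. Of 20 genes listed only 12 were tested, so the list is incomplete. Of the 12, 4 were called lower and 1 higher, with a median of -0.92. In WT 5 were called lower and 1 higher, with a median of -0.65, and the median departure was -0.20. *Sh2d1b2*, an adaptor of NK cell receptors, had 13.4, 10.4 and 4.49 CPM and then 0.771, 0.95 and 1.33 CPM (log2 -3.22 ± 0.43). *Eomes*, a transcription factor of NK cells that overlaps *Gm33460*, fell from 6.48, 4.63 and 3.39 CPM to 1.11, 1.37 and 1.37 CPM (log2 -1.91 ± 0.26). *Klra7* and *Klrd1*, encoding NK receptors with close paralogs, were at 2.13, 1.7 and 0.957 and 1.98, 1.4 and 0.626 CPM and then at 0.0482, 0.0594 and 0.221 and 0.337, 0.356 and 0.0442 CPM. At gd16.5 part of these values lay under the limit of detection. *Cd160*, which overlaps *Pdzk1*, was the member called higher, at 0.6, 0.862 and 0.92 and then 2.75, 1.78 and 1.5 CPM. The calls of *Klrd1* and *Cd160* were lost without KO gd14.5 replicate 1 (adjusted p 0.0825 and 0.0614) or 2 (0.0816 and 0.0597), and that of *Klrd1* also without KO gd16.5 replicate 1 (0.0678). The interleukin receptor subunit *Il2rb* (95.1, 79.5 and 100, then 72.3, 79.9 and 87.6 CPM) and the integrin *Itga2* (52, 52.4 and 50.8, then 81.6, 70.1 and 61.1 CPM) were not called. Without the libraries with yolk sac RNA, 7 effector and 3 identity genes were called lower and none of either list higher, with an effector median of -2.70. With the yolk sac score as a covariate, 1 effector and 0 identity genes were called, with an effector median of -2.62.

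**Figure D4:**
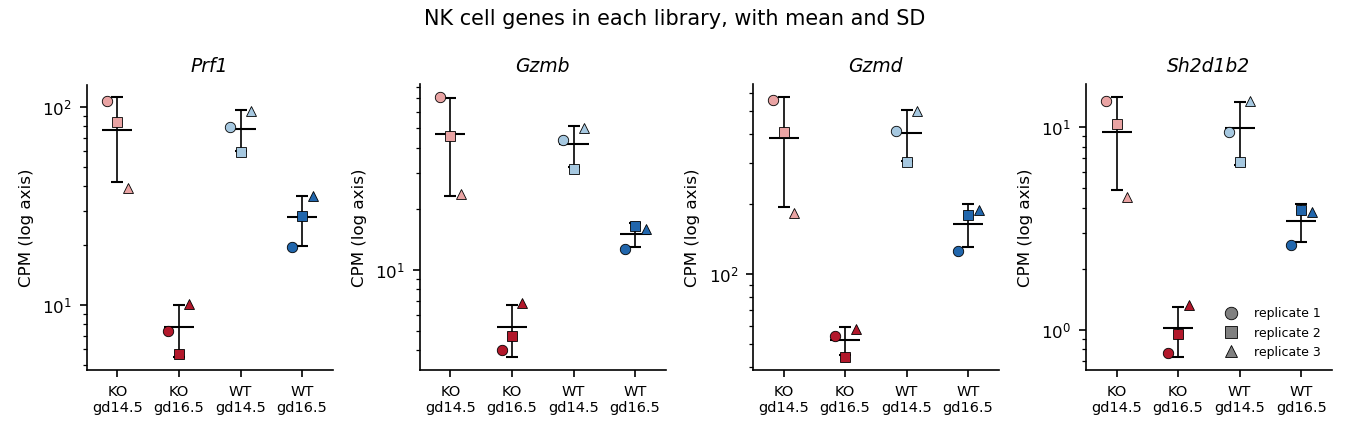
CPM (log axis) of *Prf1*, *Gzmb*, *Gzmd* and *Sh2d1b2* in the 12 libraries, by genotype and stage, 1 point a library. For *Prf1* the KO gd16.5 libraries, at 7.42, 5.64 and 10.2 CPM, lie below the WT gd16.5 libraries, at 19.6, 28.1 and 35.4 CPM.

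Macrophage genes were higher in KO at gd16.5 for 7 of 14 tested (50%), none were lower, and the median was 1.14. The same number was called without the libraries with yolk sac RNA, but 1 with the yolk sac score as a covariate, where the median was 0.90. The chains of complement C1q, which tissue macrophages make, were among them. *C1qa* (chr4:136895917-136898803) had 3.75, 3.35 and 3.53 CPM and then 6.51, 14.2 and 9.37 CPM in KO (log2 1.51 ± 0.26). In WT it had 3.71, 4.4 and 3.51 CPM, then 9.45, 4.85 and 4.49 CPM, and was not called. *C1qb* and *C1qc* rose by 1.44 ± 0.25 and 1.45 ± 0.23. With the covariate the adjusted p-values of *C1qa*, *C1qb* and *C1qc* were 0.115, 0.099 and 0.0893. *Lyve1*, a hyaluronan receptor of some macrophages and of lymphatic vessels, rose from 14.52, 13.9 and 15.1 CPM to 38, 34.4 and 37 CPM, and by 1.76 ± 0.22 in WT. *Adgre1* (F4/80) had 2.28, 3.13 and 2.87 CPM, then 5.45, 8.61 and 6.72 CPM. *Ms4a7* rose by 2.48 ± 0.37. The scavenger receptor *Cd163* was at 0.12, 0.0985 and 0.11 CPM and then at 1.11, 1.87 and 0.663 CPM, the first close to the limit of detection. The markers with the most counts, *Csf1r* (log2 0.27 ± 0.14) and *Cd68* (log2 -0.19 ± 0.062), were not called.

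Other immune genes were sparse. Of 10 neutrophil genes, 4 were called higher (2 without the libraries with yolk sac RNA). *S100a9*, a calcium-binding protein of granules, had 2.01, 2.24 and 1.55 CPM and then 4.34, 3.89 and 4.69 CPM, while its partner *S100a8* had 30, 23.6 and 21.5 CPM and then 14.9, 14.8 and 16.4 CPM. *Retnlg* (log2 1.81 ± 0.35) and *Ngp* (0.06, 0.0246 and 0.0368, then 0.675, 0.475 and 0.486 CPM) were low throughout. Of 12 T cell genes only 4 passed the filter on low counts, and the summed level of the list was between 2.12 and 6.72 CPM in the KO libraries. Its 3 calls, *Cd28* and *Trbc1* lower and *Cd4* higher, were all lost without the libraries with yolk sac RNA (adjusted p 0.169, 0.309 and 0.113).

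Complement genes moved both ways, with 5 of 20 called higher, the 3 C1q genes included, and 2 lower (3 and 1 without the libraries with yolk sac RNA, 0 and 1 with the yolk sac score as a covariate). *Serping1* (chr2:84765387-84775444), the inhibitor of the C1 proteases, fell from 341, 325 and 206 CPM to 135, 114 and 108 CPM (log2 -1.29 ± 0.19, edgeR adjusted p = 0.00416). In WT it had 319, 280 and 276 CPM and then 185, 206 and 335 CPM, and was not called. The overlap of the WT stages rests on WT gd16.5 replicate 3. *Masp1*, a protease of the lectin pathway, fell from 311, 324 and 208 CPM to 137, 132 and 143 CPM, but at -0.98 it was not called without those libraries, nor without KO gd14.5 replicate 1 (-0.96) or 2 (-0.92). Factor I (*Cfi*), called higher, had 0.39, 0.517 and 0.479 CPM and then 23.7, 80.7 and 0.663 CPM, with its 2 highest levels in the libraries with yolk sac RNA. It was not called without them (log2 0.51, adjusted p 0.492), nor without any 1 of the gd14.5 libraries (adjusted p 0.0799, 0.0868 and 0.0617).

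Genes of the decidua were called lower in KO for 6 of 21 (28.6%, against 3.17% of all genes) and higher for none, with a median of -0.35. *Hsd11b2*, described below, is among the 6 and is also counted in the steroid list. Without the libraries with yolk sac RNA the median was -0.53. In WT 1 was called lower and 0 higher, with a median of -0.21. The median departure was -0.26, with 6 of 21 at an unadjusted p under 0.05. With the yolk sac score as a covariate 3 were lower and 1 higher. *Pgr* (chr9:8899833-8968611), the progesterone receptor, had 70.1, 79.8 and 42.9 CPM and then 25.8, 28.9 and 23.2 CPM in KO (log2 -1.31 ± 0.22). The WT libraries had 55.3, 54.6 and 52.7 CPM, then 34.5, 33.9 and 60.7 CPM, groups that overlap only through WT gd16.5 replicate 3. *Hand2*, a stromal transcription factor that acts under progesterone, had 38.5, 41.8 and 30.6 CPM and then 9.5, 11.3 and 11.6 CPM (log2 -1.77 ± 0.14). *Hoxa10* and *Hoxa11*, which pattern the uterus, fell, with log2 fold changes of -1.12 ± 0.19 and -1.22 ± 0.17. *Hand2* and *Hoxa11* overlap the antisense genes *Hand2os1* and *Hoxa11os*. The gap junction gene *Gja1* fell from 394, 473 and 304 CPM to 178, 181 and 202 CPM (log2 -1.06 ± 0.15). Leaving out KO gd14.5 replicate 2 brought the changes of *Gja1* and *Hoxa10* under the fold threshold, to -0.90 and -0.94. The decidual genes with high counts, *Prl8a2* (log2 -0.35 ± 0.15) and *Cryab* (log2 -0.28 ± 0.12, overlapping *Hspb2*), were not called.

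*Hsd11b2* (chr8:105518755-105523988), the enzyme that inactivates glucocorticoids, was among the largest falls. It had 43.6, 49.1 and 33.5 CPM at gd14.5 and 1.25, 1.57 and 2.7 CPM at gd16.5, with no overlap, which the rule for naming the largest falls required. On the log2 scale it changed by -4.52 ± 0.26 (edgeR adjusted p = 0.000605). The WT change was -4.47 ± 0.28. *Dio3*, which inactivates thyroid hormone, had 12.4, 12.1 and 4.31 CPM and then 0.193, 0.653 and 1.24 CPM (log2 -3.78 ± 0.58). Of 18 steroid and prostaglandin genes, 3 were called higher and 3 lower, and 1 and 1 without the libraries with yolk sac RNA. The estrogen sulfotransferase *Sult1e1* rose from 13.1, 10.1 and 13.4 CPM to 106, 97.3 and 56.3 CPM, and by 1.63 ± 0.16 on the log2 scale in WT. *Cyp17a1*, an enzyme of androgen synthesis, rose by 1.03 ± 0.12. Its change was 0.75 without the libraries with yolk sac RNA, 0.97 without KO gd14.5 replicate 2 and 0.91 without KO gd16.5 replicate 1, all under the threshold. *Hsd17b7* fell by 1.27 on the log2 scale and was not called without those libraries. The remaining rise, *Hsd3b1* (7.18, 53.3 and 0.265 CPM at gd16.5), lay in the libraries with yolk sac RNA, and its call was lost without each gd14.5 library in turn (adjusted p 0.0949, 0.106 and 0.0802) and without KO gd16.5 replicate 1 (0.0502). *Cyp11a1*, which starts steroid synthesis, had 242, 246 and 166 CPM, then 122, 178 and 111 CPM, and was not called.

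A further 4 genes of the largest falls belonged to no list. The calcium-binding protein *Cabp7*, which overlaps *Zmat5*, had 10.7, 12 and 10.9 CPM and then 0.627, 0.445 and 1.5 CPM. The neurotrophin receptor *Ngfr* went from 5.37, 8 and 6.74 CPM to 0.337, 0.267 and 1.55 CPM. *Tmem72*, a membrane protein, had 4.59, 4.9 and 5.93 CPM, then 0.145, 0.178 and 0.884 CPM. *Cdca7l*, which overlaps *Dnah11* and *Gm20613*, had 13.5, 14.8 and 9.2 CPM, then 1.3, 1.19 and 1.64 CPM. The rule by which they were named required the stages to be apart. In each, KO gd16.5 replicate 3 was the highest library of its stage.

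Embryonic globins fell most of all genes named. *Hbb-y* (chr7:103851749-103853216), the embryonic beta-type chain, had 799, 535 and 308 CPM at gd14.5 and 3.91, 2.82 and 10.9 CPM at gd16.5 in KO. *Hba-x*, the embryonic alpha-type chain, had 74.2, 53.8 and 40.6 CPM, then 0.723, 0.653 and 3.89 CPM. Log2 fold changes were -6.57 ± 0.60 and -5.06 ± 0.58 in KO, and -5.98 ± 0.27 and -4.11 ± 0.23 in WT. The adult chains did not follow. *Hbb-bs* had 1718, 1654 and 2032 CPM and then 4510, 1670 and 2969 CPM, and *Hba-a1* had 928, 827 and 971 CPM and then 1424, 540 and 923 CPM, and the edgeR adjusted p-values were 0.115 and 0.866. Of the 17 erythroid genes tested in KO, 4 were called lower (23.5%, against 3.17% of all genes) and none higher. The median was -0.40, and -0.24 without the libraries with yolk sac RNA. In WT 5 were called higher and 5 lower, with a median of 0.40. The median departure of the list was -0.62, with 13 negative and 4 positive. Globin genes are close paralogs.

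Cell cycle genes fell as a group in both genotypes. Of 29 tested in KO, 21 were called lower (72.4%) and none higher, with a median of -1.43. In WT 17 were called lower, with a median of -1.30, and the median departure was -0.098. Without the libraries with yolk sac RNA, 17 were called in KO, and 11 with the yolk sac score as a covariate. The proliferation antigen gene *Mki67* (chr7:135689784-135716361) had 58.5, 63.7 and 44.8 CPM and then 11.7, 11.3 and 15.5 CPM (log2 -2.12 ± 0.17). *Top2a*, the topoisomerase of dividing cells, went from 51.7, 53.4 and 38.5 CPM to 10.9, 10.48 and 15.3 CPM. *Cdk1*, the kinase that drives mitosis, had 20.3, 19.6 and 15.2 CPM, then 6.12, 6.12 and 8.22 CPM. The largest fall of the list was that of the replication helicase subunit *Mcm5* (log2 -2.20 ± 0.23). *Rrm2*, which makes deoxynucleotides, fell by 1.60, and *E2f8*, a factor of polyploid trophoblast that overlaps *Gm2788*, by 1.20, on the log2 scale. *E2f8* was at -0.92 without the libraries with yolk sac RNA, under the threshold.

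Promoters of this list were searched for CCAAT, the letters of the box bound by NF-Y, and for TTTGAA, the CHR element of genes of late cell cycle, on both strands of the same RefSeq windows. CCAAT was found in 22 of 25 matched promoters (88%), against 37.9% of all 27025. TTTGAA was found in 12 (48%), against 18.1%, and both in 12 (48%), against 7.12%. The 150 bases before the start sites of *Top2a* (chr11:99024190-99024339, minus strand) and *Cdk1* (chr10:69352913-69353062, minus strand) are shown 5′ to 3′, because both hold several matches. Capitals mark matches of either motif on either strand, so that CCAAT on the other strand reads ATTGG.
Top2a: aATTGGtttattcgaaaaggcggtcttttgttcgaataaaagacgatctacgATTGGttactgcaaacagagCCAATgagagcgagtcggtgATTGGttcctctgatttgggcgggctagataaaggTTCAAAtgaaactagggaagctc
Cdk1: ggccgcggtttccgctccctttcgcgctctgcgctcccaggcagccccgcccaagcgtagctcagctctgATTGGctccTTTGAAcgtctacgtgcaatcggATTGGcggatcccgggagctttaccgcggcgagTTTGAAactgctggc

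For the erythroid list, AGATAA, a form of the GATA motif, was found in 4 of 14 matched promoters (28.6%) against 11.4% of all. The 4 searches describe letters in the windows, and nothing about binding in these libraries follows from them.

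Nutrient transport gave 4 genes higher and 1 lower of 25, and 4 and 0 without the libraries with yolk sac RNA. The KO calls with all libraries were 20% of the list, against 8.46% of all genes, and in WT 6 genes were called higher and 0 lower. The 2 largest rises of the list were in calcium transport. The calcium channel *Trpv6* rose from 2.49, 3.15 and 5.3 CPM to 27.6, 27 and 25.2 CPM and *S100g*, the cytosolic calcium-binding protein calbindin-D9k, from 38, 26.4 and 26.9 CPM to 136, 139 and 136 CPM. On the log2 scale they changed by 2.88 ± 0.24 and 2.17 ± 0.14 in KO, and by 2.62 ± 0.16 and 1.63 ± 0.22 in WT. The amino acid transporter *Slc7a8* rose by 1.41 ± 0.19 and lipoprotein lipase *Lpl* by 1.28 ± 0.19. *Fabp4*, a fatty acid carrier of vessels, fell from 243, 232 and 172 CPM to 99.8, 102 and 113 CPM, a log2 fold change of -1.04 ± 0.13 that was -0.94 without the libraries with yolk sac RNA, -0.95 without KO gd14.5 replicate 1 and -0.99 without replicate 2. The iron receptor *Tfrc* (1265, 1287 and 1627, then 2236, 971 and 1790 CPM), the glucose transporter *Slc2a1* (749, 762 and 935, then 1412, 967 and 1407 CPM; it overlaps *Gm12868*) and the amino acid transporter *Slc38a4* were not called. In the labyrinth list 1 of 14 was called (7.14%), a share near the 8.46% of all genes. It was the cell fusion gene *Syna* (overlapping *Gm42884*), at 63.1, 74.2 and 70.7 CPM and then 18.5, 17.1 and 44.6 CPM. KO gd16.5 replicate 3 was apart there, and *Syna* was at -0.64 without the other 2 libraries. Its adjusted p was 0.0625, 0.0838 and 0.0575 when KO gd14.5 replicates 1, 2 and 3 were left out in turn, and 0.081 without KO gd16.5 replicate 1.

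Structural and other lists held few calls. Of 20 matrix genes, 3 were called higher, led by elastin (*Eln*, overlapping *Gm30003*), which rose from 5.37, 5.81 and 9.65 CPM to 20.1, 21.5 and 22.9 CPM. Without the libraries with yolk sac RNA, and without KO gd16.5 replicate 2 alone, 1 was called. The other 2, Col6a1 and Col6a2, were at 0.74 and 0.79 without those libraries. Fibronectin *Fn1* (overlapping *Apol7d*), the basement membrane collagen *Col4a1* (overlapping *Col4a2*) and *Sparc* were at log2 fold changes of 0.41 ± 0.20, -0.23 ± 0.14 and -0.18 ± 0.089 and were not called. Of 12 smooth muscle genes, calponin (*Cnn1*) was called higher, at 0.51, 0.566 and 0.773 CPM and then 2.07, 1.57 and 1.46 CPM, but not without the libraries with yolk sac RNA. The 1 call was 8.33% of the smooth muscle list, near the 8.46% of all genes. *Des* and *Smtn* had log2 fold changes of -0.84 ± 0.22 and -0.37 ± 0.14. In the lists of 14 endothelial, 20 interferon-stimulated, 18 antigen presentation and 22 glycolysis and hypoxia genes, none was called in KO. Log2 fold changes lay between -0.84 and 0.35, -0.72 and 0.73, -0.87 and 0.40, and -0.75 and 0.66 in these lists. Of the 8 tested genes of the C1qtnf family, *C1qtnf6* included, none was called with all 6 libraries.

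**Figure D5:**
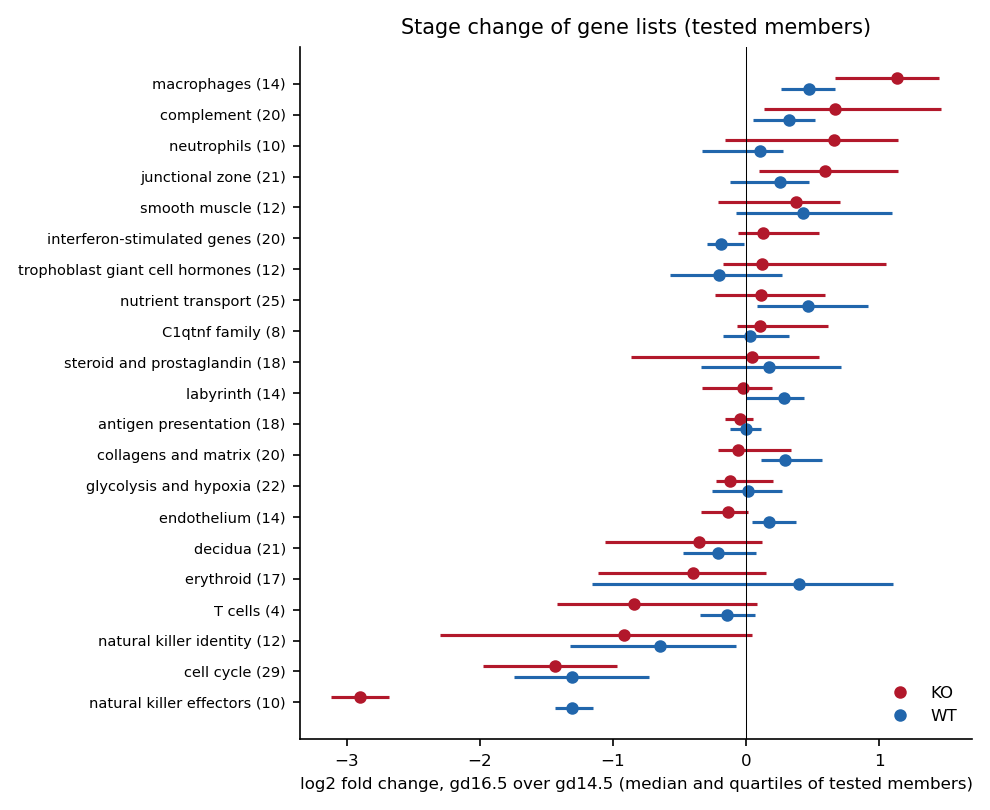
Median log2 fold change from gd14.5 to gd16.5 of each of 21 gene lists in KO and WT, with bars from the lower to the upper quartile over the genes of a list. NK effectors have a median of -2.90 in KO and -1.31 in WT, and the cell cycle list -1.43 and -1.30.

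Whether the KO change departed from the WT change was tested as the interaction of genotype and stage in 1 fit of the 12 libraries. With edgeR, 0 of 18066 genes (0%) had an adjusted p under 0.05, and the smallest adjusted p was 0.528. At an unadjusted p under 0.05 there were 1590 genes (8.8%), 768 with a higher and 822 with a lower log2 change in KO than in WT. Limma voom also called 0 (smallest adjusted p 0.362), and DESeq2 on the same libraries called 32, of which 23 were positive. The departures below are therefore given as values that did not pass the correction.

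Families of placental genes were among the DESeq2 calls. Of the 32 genes, 13 belonged to the Prl, Psg, Ceacam, Tpbp and placental cathepsin families, and all 13 were positive. Of these, 4 were Prl and 2 Psg genes. All lie on chromosome 7 or 13, and members of a family are not independent observations. In edgeR, *Prl8a6* had a departure of 1.43 ± 0.26 (KO minus WT log2 change, SE), with an unadjusted p of 0.000138 and an adjusted p of 0.528. *Prl3a1*, *Psg26* and *Tpbpb* departed by 1.16 ± 0.34, 0.75 ± 0.22 and 0.67 ± 0.20. *Prl8a8*, at 3517, 3354 and 3505 and then 5838, 6276 and 6449 CPM in KO and at 3517, 3284 and 3385 and then 4103, 4628 and 3587 CPM in WT, departed by 0.57 ± 0.15. In all, 24 of 25 prolactin family genes had a positive departure, 13 of them at an unadjusted p under 0.05, and 12 of 14 pregnancy-specific glycoprotein genes did, 7 of them under 0.05. Over all genes the median departure was 0.0061. Without the 3 libraries with yolk sac RNA, *Prl8a6*, *Prl3a1*, *Psg26* and *Tpbpb* departed by 1.12, 0.87, 0.71 and 0.64. On the WT side, gd16.5 replicate 3 had the lowest prolactin family sum of its group, 37190 CPM against 46210 and 49990 CPM. Among negative DESeq2 calls were *Serping1* and *Fabp4*, at -1.02 ± 0.31 and -0.57 ± 0.16 in edgeR.

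Other genes with the smallest p for an upward departure were of several kinds. *Rab30*, a small GTPase of the Golgi, had 17.7, 17.6 and 15.6 and then 25.8, 40.3 and 30 CPM in KO, but 27.6, 23.8 and 19.6 and then 21.1, 23.1 and 20.2 CPM in WT (departure 1.06 ± 0.22, unadjusted p 0.00038). *Nppb*, the B-type natriuretic peptide, had 1.71, 1.4 and 1.4 and then 19.1, 11.5 and 4.46 CPM in KO, and 1.78, 1.33 and 2.3 and then 2.88, 3.74 and 2.43 CPM in WT. Its departure of 2.18 ± 0.59 became 0.76 without the libraries with yolk sac RNA. *Prl3d1*, *Sult1e1* and *Doxl2* departed by 1.19 ± 0.30, 1.20 ± 0.31 and 1.43 ± 0.43. Without those libraries the departures were 1.01, 0.49 and 0.77 (unadjusted p 0.00233, 0.0929 and 0.0756). The oxysterol enzyme *Cyp39a1* and the granulocyte receptor *Csf3r* departed by 1.00 ± 0.29 and 1.02 ± 0.30, and by 0.61 and 1.49 without those libraries. *C1qtnf6* itself was the tenth, at 1.70 ± 0.52, a ratio of residual KO reads that rests on KO gd16.5 replicate 3, and at 2.76 without those libraries.

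Downward, *Ceacam18* (chr7:43634707-43649295), of a family of adhesion proteins with close paralogs, had the smallest p. It had 12.1, 7.71 and 6.41 CPM and then 1.69, 2.29 and 2.65 CPM in KO, and 8.31, 6.02 and 6.62 CPM and then 6.24, 6.08 and 7.49 CPM in WT. KO fell below every WT library at gd16.5, while at gd14.5 the genotypes overlapped. The departure was -1.89 ± 0.33, with an unadjusted p of 9.08e-05 and an edgeR adjusted p of 0.528, and -1.67 without the libraries with yolk sac RNA. The taurine and GABA transporter *Slc6a13* had 14.3, 14.55 and 12 and then 3.04, 3.12 and 5.13 CPM in KO, and 15.2, 10.8 and 10.2 and then 7.93, 7.86 and 13 CPM in WT (departure -1.53 ± 0.34). WT gd16.5 replicate 3 was the highest of its stage here too. The calcium channel *Cacna1b* and the adhesion protein *Igdcc3* departed by -1.41 ± 0.33 and -1.54 ± 0.40, and by -1.06 and -0.96 without those libraries. The kallikreins *Klk4* and *Klk15*, serine proteases with close paralogs, departed by -1.25 ± 0.29 and -1.05 ± 0.27, and *Klk15* overlaps *Gm44756*. *Mrgprg*, a receptor, and *Cpne5*, which overlaps *Gm50054*, departed by -1.11 ± 0.30 and -1.90 ± 0.52, and by -1.13 and -1.23 without those libraries.

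NK effector genes departed downward as well, without passing the correction in the main fit. All 10 tested had a negative departure, 8 of them at an unadjusted p under 0.05, with a median of -1.60. The study had already reported *Prf1* and several granzymes as lower in KO than in WT at gd16.5 from these same libraries. The shared direction of the list is therefore no separate evidence, and granzymes, as close paralogs, are not independent observations. *Prf1* departed by -1.84 ± 0.49 (unadjusted p 0.00265, edgeR adjusted p 0.528), *Gzmb* by -1.70 ± 0.47 and *Gzmd* by -1.58 ± 0.46. In 1 of 23 alternatives, the fit without an expression filter, *Prf1* (edgeR adjusted p 8.01e-05) and *Gzmb*, *Gzmd* and *Gzmg* (each 0.000227) passed. Without the libraries with yolk sac RNA, *Prf1* was at -1.63 with an unadjusted p of 0.0225. The summed level of the list at gd14.5 was 2277, 1618 and 755 CPM in KO and 1644, 1188 and 1985 CPM in WT, which overlap. At gd16.5 it was 214, 174 and 244 CPM in KO and 498, 724 and 756 CPM in WT, which do not. The junctional zone list summed to 115429, 106921 and 108157 CPM in KO gd16.5 and to 83104, 87864 and 66859 CPM in WT gd16.5. The part of this difference in the levels of NK genes was not tested. One-sided departures were not particular to NK effector and hormone genes. In the nutrient transport list 21 of 25 were negative (8 at an unadjusted p under 0.05), with a median of -0.27. In the matrix list 19 of 20 were negative and in the endothelial list 13 of 14, with medians of -0.30 and -0.34. Of the interferon-stimulated genes 17 of 20 were positive, with a median of 0.31. Larger medians occurred too: 2.06 for the yolk sac list (22 of 22 positive), -0.62 for the erythroid list (13 of 17 negative) and 0.54 for macrophages (10 of 14 positive). In the labyrinth list 13 of 14 were negative and in the smooth muscle list 11 of 12, with medians of -0.28 and -0.27. Over all genes the median departure was 0.0061.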

How the data were processed

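PolyA RNA of the maternal-fetal interface had been sequenced as paired reads from stranded libraries. Per the submitters' processing notes, reads were trimmed with Trim Galore 0.6.4, aligned to GRCm38 with STAR 2.7.3a and counted with featureCounts of Subread 2.0.0. The authors deposited 1 table of raw counts of 55401 genes, whole numbers without normalization. Counting at default settings ignores strand and drops reads that map to several places, so overlapping genes and paralogs are uncertain. KO libraries are numbered 3, 4 and 5 in titles and 1, 2 and 3 in descriptions, and the latter are used here. No 2 replicates were one library deposited again, since chi-square over degrees of freedom was 10.1 to 66.0 for the pairs of a group.

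The 12 KO and WT libraries of gd14.5 and gd16.5 shared an expression filter (filterByExpr, minimum count 10, minimum total count 15) and TMM factors. Stage changes were tested in the 6 libraries of a genotype and the departure as an interaction over 12, by edgeR's quasi-likelihood test (version 4.0.16, R 4.3.3) and Benjamini-Hochberg adjustment. A stage change was called where its adjusted p was under 0.05 and its log2 change above 1 in size, a departure at an adjusted p under 0.05. SEs were derived from the F statistic. Log2 CPM used a prior count of 2. DESeq2 1.42.0 and limma 3.58.1 (voom) served as alternatives, and Python 3.11.15 for promoters and plots.

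The members and the 23 gene lists were chosen with earlier results of these data known, and the lists were written from general knowledge. Named genes were *C1qtnf6*, the 12 largest rises and falls among calls with groups apart and a mean of at least 5 CPM, the 10 smallest departure p-values in each direction with an absolute departure over 1, and of each list the 3 members with the highest mean CPM and the called members with the largest rise and fall. Unnamed gene models were skipped, not every member so chosen is printed, and other list members, the 20 genes that rose in every library and the gene families were picked with their values known. The steps were tested on simulated data. The result of 1 list member is not reported here. No set test was run, and the other 12 libraries of the series entered only the fits of all 24.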

Additional observations from a re-analysis of the deposited data

How the results depend on the processing

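The KO count of 1529 genes became 976 with at least 10 counts in every library, 995 when Y-linked expression and 409 when the yolk sac score was a covariate, 4666 without a fold threshold and 670 without the libraries with yolk sac RNA, an alternative chosen after the data had been seen. Leaving out each library in turn gave 856 to 1834 calls, with 919 and 856 without KO gd14.5 replicates 1 and 2. Without an expression filter it was 1923. The WT count of 1024 became 674 with at least 10 counts in every library and 4183 without a fold threshold, and 745 to 1183 without single libraries. The departure count of 0 became 143 without an expression filter, 32 with DESeq2 on the same libraries and 1 (*Ceacam18*) with DESeq2 on all 24. It was 0 in each other alternative, an adjusted p under 0.1 and each left-out library included. The cause of these differences was not tested.

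The same replicate number did not mark a shared deviation, with correlations between -0.132 and -0.0135 over 6 same-number pairs. With a replicate block the counts were 1399 for KO, 925 for WT and 0 for the departure.

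Of 2904 values of named genes under alternatives, 2659 kept their direction and stayed called or stayed uncalled, 191 lost the call, 46 gained it and 8 reversed. The 2659 include departures and stage changes that were called in neither fit, so they do not measure how stable calls are. With the yolk sac score as a covariate, log2 fold changes were -0.70 for *Alb*, -0.12 for *Fgb*, -0.011 for *Trf*, -0.62 for *Cfi* and -2.53 for *Hsd3b1*. *Alb* and *Fgb* are members of the list behind the score, so the loss of their change was fixed in advance. With KO gd16.5 libraries left out in turn, *Tfrc* ranged from -0.013 to 0.53 and *Hba-a1* from -0.31 to 0.37, both lowest without replicate 1, and *Hba-a1* was at -0.024 with the replicate block. The median NK effector departure lay between -1.93 and -1.21 in all alternatives run. The fit without yolk sac RNA has 1 KO library at gd16.5, which limits its precision.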

Other observations

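Further placental families, chosen by symbol after the values had been seen, gave these values. The 6 tested placental cathepsin genes, of which 3 were called higher in KO, belonged to a family whose sum was 12870, 12430 and 15210 CPM in KO gd14.5 and 36230, 35170 and 32010 CPM in KO gd16.5. In WT the sums were 13600, 14350 and 14620 CPM, then 29210, 31470 and 22350 CPM. Of 13 Ceacam family genes, 5 were called higher and 3 lower in KO, and the family summed to 18030, 16290 and 19960 CPM, then to 40460, 37860 and 38340 CPM. Each KO gd16.5 sum of both families was above each WT gd16.5 sum, which for Ceacam genes were 28530, 31300 and 23450 CPM. Kallikrein genes, 2 of 7 called lower in KO, summed to 53.2, 35.7 and 35.7 CPM and then to 14.2, 19.1 and 31.0 CPM in KO, and to 43.4, 30.5 and 32.2 CPM and then to 37.5, 31.2 and 32.3 CPM in WT.

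Among DESeq2's departure calls outside those families were the kinase Rps6ka6 (departure 0.69, adjusted p 0.0027), the chaperone Hsp90b1 (0.67, adjusted p 0.00321) and the protein disulfide isomerase Pdia6 (0.36, adjusted p 0.0312), which were positive. The kinase Rock2 (-0.36, adjusted p 0.00284) and vimentin (Vim; -0.51, adjusted p 0.0312) were negative. With edgeR the adjusted p was 0.528 for Rps6ka6, Hsp90b1, Rock2 and Vim and 0.538 for Pdia6, so these calls rest on the tool.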
